A study of Mus musculus with 3 samples.

Results

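The cells described here are *Pdgfra*-positive stromal cells of mouse inguinal fat that carried *Icam1* transcripts but few transcripts of the genes that mark neighboring stromal states. *Icam1* is a common marker of committed preadipocytes, and the thresholds used here are narrower than that marker alone. Barcodes with at least 2000 unique molecular identifiers (UMIs) and at most 10% mitochondrial UMIs were taken as cells. A member had at least 1 *Pdgfra* UMI and at least 2 *Icam1* UMIs, at most 2 UMIs of *Pi16*, at most 1 of *Ccn5*, *Gdf10*, *Crabp1* and *Top2a*, at most 4 of *Adipoq*, and no UMI of *Fgf10*, *Epcam* or *Pecam1*. Members were thus chosen by the measured UMIs of 11 genes, which took 796 of 31905 cells, and 22379 other cells with a *Pdgfra* UMI served for comparison. Each genotype was represented by 1 library of stromal vascular fraction (SVF) cells from mice aged 4 weeks. The libraries were made to learn how loss of matrix Gla protein (MGP), a secreted inhibitor of BMP signaling and calcification, changes the adipose stroma. Whether they were prepared together is not stated. Wild-type (WT) mice carried the intact gene, *Mgp*-KO mice carried a global deletion, and *Pd*-KO mice carried floxed *Mgp* alleles with a *Pdgfra*-*cre* transgene. Cells of several mice of both sexes were pooled in each library after collagenase digestion and sorting of live CD45-negative cells. The *Pd*-KO library is set beside WT here; floxed mice without the transgene, the control that the breeding scheme implies, were not analysed here. The deletion by *Pdgfra*-*cre* reaches every cell lineage in which the promoter has been active, and not only the cells studied here.

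Subcutaneous fat holds a hierarchy of fibroblast-like progenitors. *Dpp4*- and *Pi16*-expressing interstitial cells can give rise to *Icam1*-expressing committed preadipocytes, which respond readily to adipogenic signals and turn on *Pparg*, the master regulator of fat cell formation. A further population with *F3* and *Gdf10* has been described as restraining adipogenesis. *Icam1* itself encodes an adhesion molecule for leukocytes and is a classical target of NF-κB, a transcription factor that sits inactive in the cytoplasm until cytokines lead to the breakdown of its inhibitor IκBα, encoded by *Nfkbia*.

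The libraries held 184102026 UMIs in WT, 93212243 in *Mgp*-KO and 83942865 in *Pd*-KO. Members had a median of 13162 UMIs in WT, 6365 in *Mgp*-KO and 7274 in *Pd*-KO, so a threshold on UMIs does not ask the same of a cell in every library. There were no replicates, no test between genotypes was possible, and all intervals below are at 95% and reflect counting error alone. UMIs of a gene can come from few cells, so the number of cells or the share of the top cell is given where this bears on a value. Levels are counts per 1e6 UMIs (CPM), the UMIs of a gene divided by all UMIs of a group of cells and scaled to that common total. Because *Icam1* and the other thresholds chose the members, the comparison of members with other cells is a description and was given no test. Libraries shared 35 to 40 cell barcodes in pairs, and 1 barcode was a member in both the WT and the *Mgp*-KO library.

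Members made up 3.58% of *Pdgfra*-positive cells in WT (276 of 7702, exact binomial interval 3.18 to 4.02), 5.22% in *Mgp*-KO (475 of 9099, 4.77 to 5.70) and 0.706% in *Pd*-KO (45 of 6374, 0.515 to 0.944). The *Pd*-KO share was the lowest, and its interval did not meet the others. The remaining pair lay closer once depth was matched. When every cell was thinned to 5000 UMIs first, the shares were 5.40%, 6.05% and 0.776%, and at 2000 UMIs they were 3.27%, 3.38% and 0.321%. Without the *Fgf10* threshold the order of WT and *Mgp*-KO turned, with shares of 13.1%, 10.8% and 2.65%. The genotype cannot be told apart from the library, the pool of mice or the preparation.

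**Figure D1:**
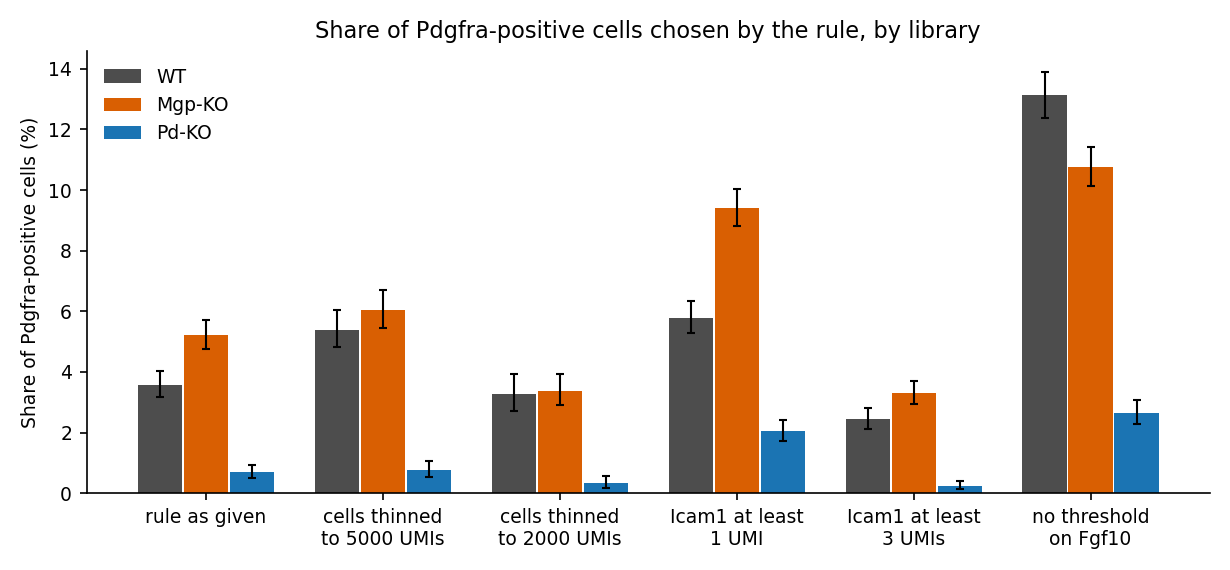
Share of *Pdgfra*-positive cells that were members (percent, linear axis from 0) in the WT, *Mgp*-KO and *Pd*-KO libraries under the thresholds as given and 5 alternatives, with bars for the share and lines for the exact 95% binomial interval. *Pd*-KO is lowest in each set of bars, between 0.235% and 2.65%, whereas WT exceeds *Mgp*-KO only where the *Fgf10* threshold is dropped (13.1% against 10.8%).

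The narrow gate matters for what the members stand for. Among *Pdgfra*-positive cells, 2425 in WT (31.5%, 30.4 to 32.5), 1656 in *Mgp*-KO (18.2%, 17.4 to 19) and 328 in *Pd*-KO (5.15%, 4.62 to 5.72) had at least 2 *Icam1* UMIs. Members were 11.4%, 28.7% and 13.7% of these. *Fgf10*, which encodes a fibroblast growth factor with a known role in preadipocytes, turned away the most: 1650 of the WT cells with *Icam1*, 811 in *Mgp*-KO and 216 in *Pd*-KO had a UMI of it. For 735, 504 and 124 of them it was the only threshold missed. *Icam1* was thus not limited to the members, which are the part of the *Icam1*-positive cells without *Fgf10* and without the signatures named above.

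*Icam1* stood at 355 CPM in WT members, 589 in *Mgp*-KO and 344 in *Pd*-KO, against 104, 96.7 and 23.7 CPM in other *Pdgfra*-positive cells. Exactly 2 *Icam1* UMIs, the least the rule allows, were found in 88 WT, 175 *Mgp*-KO and 30 *Pd*-KO members, or 31.9%, 36.8% and 66.7%. At least 6 UMIs were carried by 68, 81 and 1 members. Just outside the threshold, 170, 382 and 85 cells met everything else with exactly 1 *Icam1* UMI, and 487, 1227 and 545 did so with none. *Pd*-KO members therefore sat closest to the edge of the rule.

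The other markers given for these cells were higher in members than in other *Pdgfra*-positive cells in each library. *Col4a1*, a chain of basement membrane collagen IV, was at 2504 CPM in WT members, 1649 in *Mgp*-KO and 2626 in *Pd*-KO, against 1450.5, 808 and 844 CPM in the other cells. *Cxcl1*, a neutrophil-attracting chemokine, was at 984, 1266 and 376 CPM against 479, 520 and 78.2. *Ifi207*, an interferon-inducible gene of the p200 family, was at 213, 542 and 308 CPM against 139, 283 and 120. *Thsd7a*, which encodes a thrombospondin-domain protein, was at 62.4, 288 and 346 CPM against 37.4, 163 and 160. These levels gave log2 ratios of members to other cells between 0.62 and 2.27. After cells were thinned to 2000 UMIs, a UMI of *Thsd7a* was found in 7.61% of WT members (4.77 to 11.4) and 7.23% of other WT cells. In *Mgp*-KO these shares were 31.8% and 19.6%, and in *Pd*-KO 28.9% and 19.2%. Of the markers besides *Icam1*, *Cxcl1* alone passed 2-fold in all 3 libraries, with log2 ratios of 1.04 (0.99 to 1.09), 1.28 (1.24 to 1.33) and 2.27 (2.00 to 2.52).

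A subset of the WT members went against the label. In WT, 38 members carried at least 10 UMIs of the chemokine genes *Ccl19* and *Ccl21a* together (13.8%, 9.93 to 18.4), while 3 *Mgp*-KO and 1 *Pd*-KO members did. This threshold was set after the values had been seen, and 29 of the 38 cells had at least 50 such UMIs. Both genes have near-identical copies in the mouse genome, so their own counts are uncertain. Compared with the other 238 WT members, the 38 cells were higher in *Clu* (7062 against 42.0 CPM), *Ifitm1* (2448 against 12.5 CPM), *Cxcl12* (1858 against 283 CPM), *Bst1* (294 against 0.941 CPM) and *Tagln* (1784 against 116 CPM). They were lower in *Pparg* (2.72 against 63.3 CPM), the fatty acid carrier *Fabp4* (781 against 4065 CPM), lipoprotein lipase *Lpl* (911 against 3362 CPM), *Col15a1* (65.3 against 797 CPM) and *Col4a1* (778 against 2703 CPM). *Ifi207* was at 32.6 CPM in them and 233 CPM in the other WT members. *Icam1* was at 433 and 346 CPM, so the rule alone did not separate these cells. *Apoe*, also on the commitment list, was higher in the 38 cells (25422 against 12428 CPM), so that the summed level of that list was 24824 CPM in all WT members and 24256 CPM without them. Values below are given without them where a call depends on them.

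**Figure D2:**
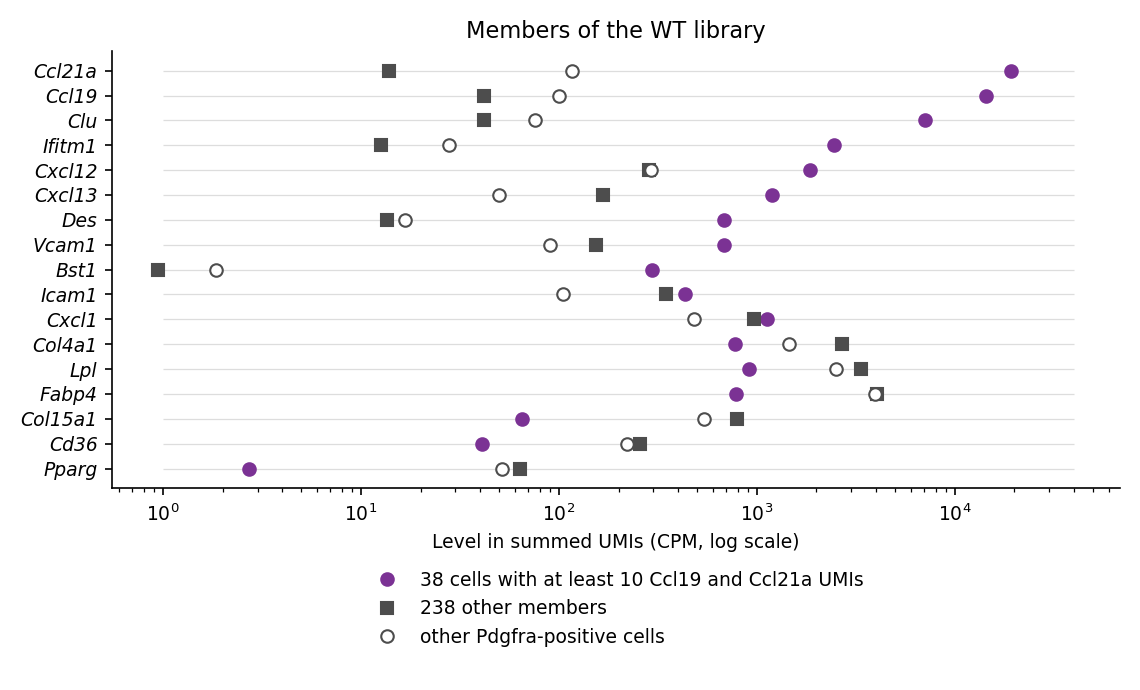
Level of 17 genes (CPM, log axis) in the 38 WT members with at least 10 *Ccl19* and *Ccl21a* UMIs, in the other 238 WT members and in other WT *Pdgfra*-positive cells. *Pparg* is at 2.72 CPM in the 38 cells and 63.3 CPM in the other members, while *Icam1* is at 433 and 346 CPM. The genes were chosen after their values had been seen.

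Across the genome, few genes set the members apart in every library. Of 5146 genes with at least 20 CPM in the higher of both groups in each library, 14 were at least 2-fold higher in members in all 3 (0.272%) and 50 were at least 2-fold lower (0.972%). Whatever the size, 1007 genes were above a ratio of 1 in all 3 libraries (19.6%) and 1450 below (28.2%). The median log2 ratio over all tested genes was -0.08 in WT, -0.06 in *Mgp*-KO and 0.06 in *Pd*-KO. Without the *Ccl19*/*Ccl21a*-high cells, 9 of 5139 genes were higher (0.175%) and 51 lower (0.992%). Here and in later comparisons with other cells, such cells were taken out of the members only. The other *Pdgfra*-positive cells kept 132 of them in WT (1.78%), 7 in *Mgp*-KO and 4 in *Pd*-KO. The 9 were *Cxcl1*, *Ccl2*, *Zfp36*, *Maff*, *Msc*, *Vtn*, *Olfm2*, *Ntf3* and *Dlk1*.

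Chemokine genes were among the 14. *Ccl2*, which attracts monocytes, was at 532 CPM in WT, 1219 in *Mgp*-KO and 311 in *Pd*-KO members, against 226, 380 and 43.5 CPM in other cells, which gave log2 ratios of 1.23 (1.16 to 1.30), 1.68 (1.63 to 1.73) and 2.84 (2.54 to 3.12). A UMI of it was found in 189, 280 and 16 members, and 1 cell gave 32.7% of the *Pd*-KO UMIs. *Birc3*, an inhibitor of apoptosis, was at 48.6, 203 and 92.6 CPM against 20.3, 84.1 and 32.7 CPM. The call of *Birc3* was lost without the *Ccl19*/*Ccl21a*-high cells, where its WT log2 ratio was 0.91. The calls of *Gadd45b*, *Tmem176b*, *Ly6h*, *Cxcl9* and *Ccl19* were lost as well, and for *Ccl19* the WT log2 ratio turned from 3.93 to -1.25. That last value is set by removing members by their own *Ccl19* UMIs while the other cells kept theirs, and gives no direction. In *Pd*-KO, 1 cell gave 80.0% of the *Ly6h* and 50% of the *Maff* UMIs.

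The other higher genes encode a regulator and secreted factors. *Msc* (musculin), a repressor of the basic helix-loop-helix family, was at 61.6 CPM in WT, 44.1 in *Mgp*-KO and 35.8 in *Pd*-KO members, against 16.6, 13.4 and 6.97 CPM, with log2 ratios of 1.89, 1.72 and 2.42. *Vtn*, the matrix adhesion protein vitronectin, was at 201, 38.8 and 56.8 CPM against 63.9, 17.0 and 23.5. *Ntf3*, the growth factor neurotrophin 3, was at 50, 24.7 and 131 CPM against 23.4, 11.6 and 29.8. *Olfm2*, a secreted olfactomedin protein, was at 68.0, 55.2 and 95.6 CPM against 31.3, 21.5 and 20.7. *Dlk1*, which encodes the preadipocyte factor Pref-1, an inhibitor of adipogenesis, was at 40.5, 32.4 and 59.7 CPM against 15.9, 16.1 and 17.0. Its UMIs came from 38, 39 and 7 members, so it marked a minority of the cells. With the other cells weighted to the depth of the members, the smallest log2 ratios of *Vtn*, *Ntf3* and *Dlk1* were 0.72, 0.97 and 0.92, below the 2-fold call. Against cells that met every threshold but had no *Icam1* UMI, *Vtn* was lower in *Pd*-KO members (56.8 against 96.7 CPM), and *Dlk1* was lower in WT and *Pd*-KO members (40.5 against 48.1 CPM and 59.7 against 96.4 CPM). The smallest log2 ratios of *Msc* and *Ntf3* against the same cells were 0.83 and 0.64, also below the 2-fold call. *Apoe*, the apolipoprotein next below the 2-fold call, was at 13771, 4539 and 3584 CPM against 6950, 2231 and 736, with log2 ratios of 0.99, 1.02 and 2.28.

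**Figure D3:**
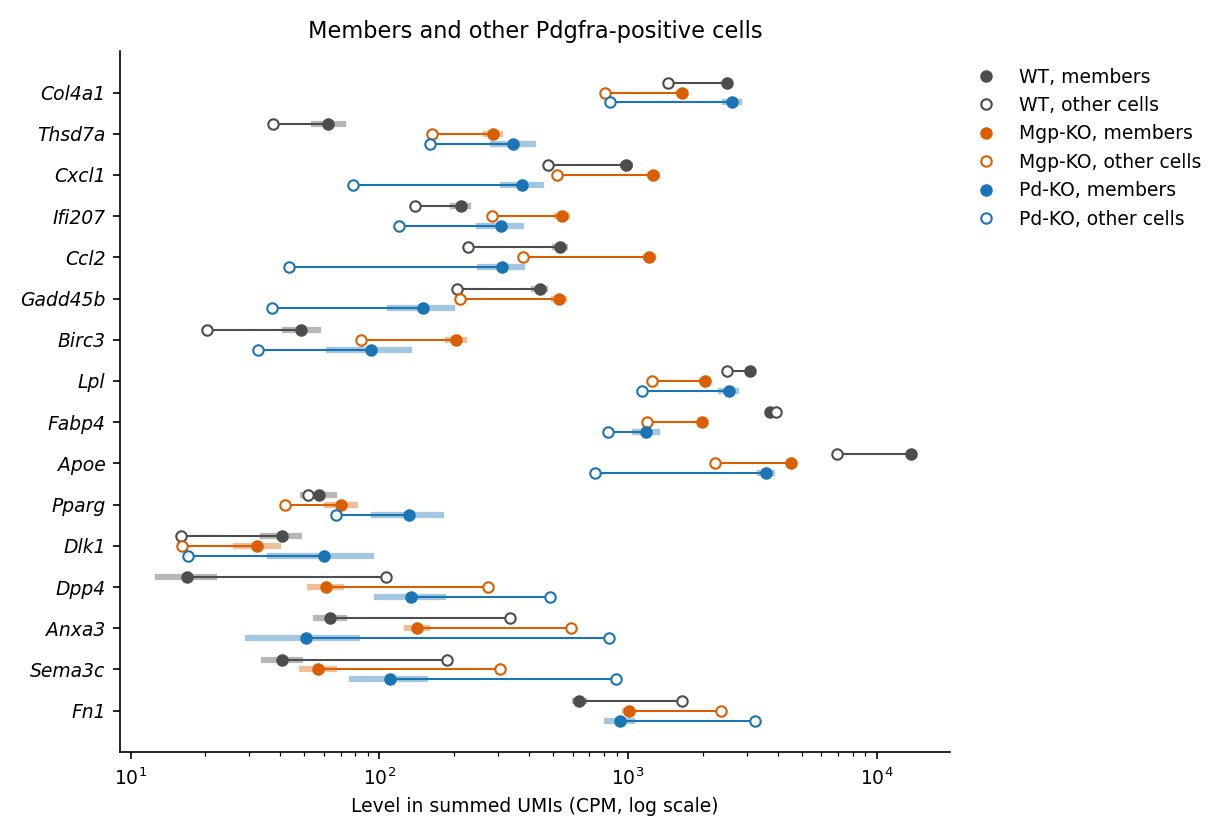
Level of 16 genes (CPM, log axis) in members (filled points) and in other *Pdgfra*-positive cells (open points) of the WT, *Mgp*-KO and *Pd*-KO libraries, with thick bars for the 95% counting interval. *Ccl2* is higher in the members of each library (532, 1219 and 311 CPM against 226, 380 and 43.5 CPM) and *Sema3c* is lower (40.8, 56.7 and 111 CPM against 187, 306 and 894 CPM).

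Genes of the interstitial progenitors were low in members, which the limit on *Pi16* favors. Of 19 tested genes of that list, 12 were at least 2-fold lower in members in all 3 libraries (against 0.972% of all genes) and 18 had a ratio below 1 in each (against 28.2%), with a median log2 ratio of -1.35 in WT, -1.67 in *Mgp*-KO and -2.34 in *Pd*-KO. *Dpp4*, the surface peptidase that marks these progenitors, was at 16.9 CPM in WT, 61.0 in *Mgp*-KO and 134 in *Pd*-KO members, against 107, 273 and 484 CPM. *Sema3c*, a secreted guidance cue, had log2 ratios of -2.19, -2.43 and -3.00. *Anxa3*, an annexin, was at 63.5, 142 and 50.8 CPM against 336, 592 and 838. *Cd55*, a complement inhibitor, was at 60.2, 72.1 and 47.8 CPM against 153, 207 and 275.

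The lowest genes over all libraries included further enzymes and signals, of which *Aldh1a3* belongs to that list and the others named here do not. *Akr1c18*, a hydroxysteroid dehydrogenase that inactivates progesterone, was at 10.4 CPM in WT, 25.3 in *Mgp*-KO and 11.9 in *Pd*-KO members, against 139, 333 and 424 CPM. *Smpd3*, a neutral sphingomyelinase, was at 32.6, 30.5 and 29.9 CPM against 214, 278 and 242. *Edn1*, the peptide endothelin 1, was at 6.47, 10.5 and 5.97 CPM against 32.2, 55.7 and 39.6. *Sfrp4*, a secreted Wnt-binding protein, was at 19.1, 52.7 and 68.7 CPM against 117, 245 and 350. *Aldh1a3*, which makes retinoic acid, was at 3.94, 5.55 and 5.97 CPM against 28.2, 56.7 and 114. Each was at least 2-fold lower in the members of every library than in other *Pdgfra*-positive cells. Against cells that met every threshold but had no *Icam1* UMI, *Smpd3* alone of these kept the call, and the smallest log2 ratios were -0.71 for *Akr1c18*, -0.88 for *Edn1*, -0.96 for *Sfrp4* and -0.05 for *Aldh1a3*.

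Most adipogenic genes stood above their level in other *Pdgfra*-positive cells without reaching the 2-fold call. Of 18 tested genes of the commitment list, none was 2-fold apart in all 3 libraries, 13 were above 1 and 2 below 1 in each (19.6% and 28.2% of all genes were), and the median log2 ratio was 0.23 in WT, 0.69 in *Mgp*-KO and 0.78 in *Pd*-KO. *Pparg* was at 57.1 CPM in WT, 70.3 in *Mgp*-KO and 131 in *Pd*-KO members, against 51.7, 42.0 and 67.1 CPM. *Lpl* was at 3109, 2042 and 2542 CPM against 2506, 1252 and 1136. *Plin2*, a lipid droplet coat protein, was at 359, 300 and 239 CPM against 254, 163 and 104. *Cd36*, a fatty acid transporter, was at 234, 189 and 164 CPM against 221, 95.8 and 95.3. *Fabp4* was at 3726, 1993 and 1183 CPM against 3954, 1198 and 833, so that its ratio was close to 1 in WT. *Bmper*, a BMP-binding protein on the list, was at 72.5, 302 and 311 CPM against 63.8, 201 and 190. The early regulators *Cebpb* and *Cebpd* were at 327, 531 and 170 CPM and at 475, 709 and 242 CPM in members, against 218, 291 and 97.6 CPM and 338, 590 and 144 CPM. *Ebf2* went the other way in both knockouts, with 216 and 511 CPM in members of *Mgp*-KO and *Pd*-KO against 363 and 737 CPM in other cells.

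Genes of mature fat cells could hardly be compared, since the rule capped *Adipoq* in the members and not in the other cells. Only 2 of 22 listed genes were high enough to be tested, and the summed level of the list was 377 CPM in WT, 243 in *Mgp*-KO and 259.9 in *Pd*-KO members, against 664, 245 and 254 CPM in other cells. *Lep* and *Pck1* were at 0 UMIs in the members. Of 12 genes of the restraint list, *Dlk1* was the only one called, where 0.272% of all genes were called higher. Its call was lost at matched depth and against cells with no *Icam1* UMI, as given above. The list medians were 0.04, 0.25 and 0.23.

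Transcripts of NF-κB targets and chemokines were more abundant in members than in the other *Pdgfra*-positive cells. Of 30 tested NF-κB genes, 5 were 2-fold higher in all 3 libraries where 0.272% of all genes were, none was lower, and 26 were above 1 in each where 19.6% of all genes were, with a median log2 ratio of 0.67 in WT, 0.75 in *Mgp*-KO and 1.09 in *Pd*-KO. Without the *Ccl19*/*Ccl21a*-high cells 2 of 28 were called, *Cxcl1* and *Ccl2*, and the WT median was 0.52. *Nfkbia* was at 754 CPM in WT, 1072 in *Mgp*-KO and 293 in *Pd*-KO members, against 383, 520 and 104 CPM. *Tnfaip6*, a hyaluronan-binding protein, was at 690, 3989 and 1290 CPM against 399, 2215 and 663. *Vcam1*, another adhesion molecule for leukocytes, was at 209, 167 and 134 CPM against 89.6, 91.4 and 49.3. *Cxcl10*, an interferon-induced chemokine, was at 548, 583 and 224 CPM against 298, 257 and 58.7. *Irf1*, an interferon response factor, was at 180, 393 and 269 CPM against 102, 153 and 72.4. Each of these genes was higher in the members of every library. *Icam1* is itself a target of this factor and was used by the rule, so genes that accompany it are not independent of the choice.

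The promoters of 3 genes of this group are shown because *Icam1* chose the members and *Cxcl1* and *Nfkbia* accompanied it. They are the 250 bases before the start site from RefSeq on GRCm38.p6, 5′ to 3′ on the strand of the gene: *Icam1* at chr9:21015690-21015939 on the plus strand, *Cxcl1* at chr5:90890995-90891244 on the plus strand and *Nfkbia* at chr12:55492648-55492897 on the minus strand. Capitals mark matches to GGANNTTCC, a form of the κB motif searched on both strands and chosen after these sequences had been seen.
Icam1: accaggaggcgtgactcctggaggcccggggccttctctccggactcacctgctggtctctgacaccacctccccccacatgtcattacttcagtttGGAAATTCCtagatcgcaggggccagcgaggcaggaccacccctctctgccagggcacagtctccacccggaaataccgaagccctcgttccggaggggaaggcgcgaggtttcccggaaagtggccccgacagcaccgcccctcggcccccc
Cxcl1: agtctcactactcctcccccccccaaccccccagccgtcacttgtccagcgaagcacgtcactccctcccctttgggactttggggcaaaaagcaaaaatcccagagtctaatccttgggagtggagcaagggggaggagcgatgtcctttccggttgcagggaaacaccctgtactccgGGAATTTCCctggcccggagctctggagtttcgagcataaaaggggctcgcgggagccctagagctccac
Nfkbia: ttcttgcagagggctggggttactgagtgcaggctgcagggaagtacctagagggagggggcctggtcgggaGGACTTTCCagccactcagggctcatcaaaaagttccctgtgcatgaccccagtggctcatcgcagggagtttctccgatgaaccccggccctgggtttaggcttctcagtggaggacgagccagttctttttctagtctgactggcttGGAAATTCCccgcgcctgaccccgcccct
The match ended 144 bases before the start in *Icam1*, 61 in *Cxcl1*, and 169 and 20 in *Nfkbia*. Of the listed NF-κB genes, 39 of 49 had a promoter in the table. These genes had 45 promoters, of which 12 held a match (26.7%). Those of *Birc3*, *Ccl19* and *Cxcl9*, also called higher in members, held none. Of all 32851 promoters of this length, 1178 held a match (3.59%), and the difference was not tested. A match describes the letters of the window and does not show binding.

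Immediate early genes, which are known to respond within minutes to growth factors and also to tissue digestion, were higher as well. Of 32 tested, 2 (*Gadd45b* and *Maff*) were called higher (0.272% of all genes were), 30 were above 1 in all 3 libraries (19.6% of all genes were), and the medians were 0.71, 0.81 and 1.24. Without the *Ccl19*/*Ccl21a*-high cells the 2 called genes were *Zfp36* and *Maff*. *Fos* was at 2884 CPM in WT, 4398 in *Mgp*-KO and 2037 in *Pd*-KO members, against 1719.9, 2557 and 757 CPM. The list summed to 24391, 31742 and 14806 CPM in members, to 14873, 18370.0 and 6774 CPM in other *Pdgfra*-positive cells, to 12183, 17926 and 6453 CPM in cells without *Pdgfra*, and to 20636, 20121 and 7156 CPM in free RNA, taken from barcodes with 10 to 100 UMIs. Members thus had the highest summed level of these cell groups in each library, and *Pd*-KO the lowest in each group. The part of digestion in these values, and in those of the NF-κB genes, was not tested.

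Interferon and antigen presentation genes differed less from the other *Pdgfra*-positive cells. Of 36 interferon genes none was called, and the medians were 0.12, 0.40 and 0.34. Of 12 antigen presentation genes none was called and 9 were above 1 in all 3 libraries (19.6% of all genes were), with medians of 0.31, 0.20 and 0.82. The WT median was 0.11 without the *Ccl19*/*Ccl21a*-high cells. *B2m*, the light chain of MHC class I, was at 1257 CPM in WT, 1042 in *Mgp*-KO and 1377 in *Pd*-KO members, against 996, 893 and 859 CPM.

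Among matrix genes, collagen IV was higher in members than in other *Pdgfra*-positive cells, and fibronectin, elastin and collagen XIV were lower. Both lists lay near 0 against cells that met every threshold but had no *Icam1* UMI. In WT, *Mgp*-KO and *Pd*-KO, the basement membrane medians against those cells were 0.02, 0.06 and -0.02, and the fibrillar matrix medians -0.02, -0.06 and -0.10. *Col4a2*, the partner chain of *Col4a1*, was at 868 CPM in WT, 811 in *Mgp*-KO and 1209.7 in *Pd*-KO members, against 549, 414 and 398 CPM. *Col15a1*, which lies between basement membrane and matrix, was at 721, 308 and 756 CPM against 539, 179.8 and 308. None of 18 basement membrane genes was called, and the list medians were only -0.05, 0.17 and 0.40. Of 31 fibrillar matrix genes, *Col14a1*, *Fn1* and *Eln* were 2-fold lower in all 3 libraries (0.972% of all genes were) and 15 were below 1 in each (28.2% of all genes were), with medians of -0.07, -0.21 and -0.37. *Fn1*, fibronectin, was at 636, 1006 and 926 CPM against 1654, 2362 and 3234. *Col3a1* was at 21708, 18667 and 28343 CPM against 24452, 21631 and 34953. *Col1a1* was at 8989.6, 8163 and 13483 CPM against 12278, 10526 and 19925. The lists of TGF-β and BMP pathway components held no called gene, with medians between -0.23 and -0.05 over both lists and all libraries. Genes of the adipogenesis-regulating population held no call either (7 tested, medians -0.15, 0.24 and 1.20), nor did adhesion ligands and receptors (11 tested, medians -0.26, -0.03 and 0.07).

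**Figure D4:**
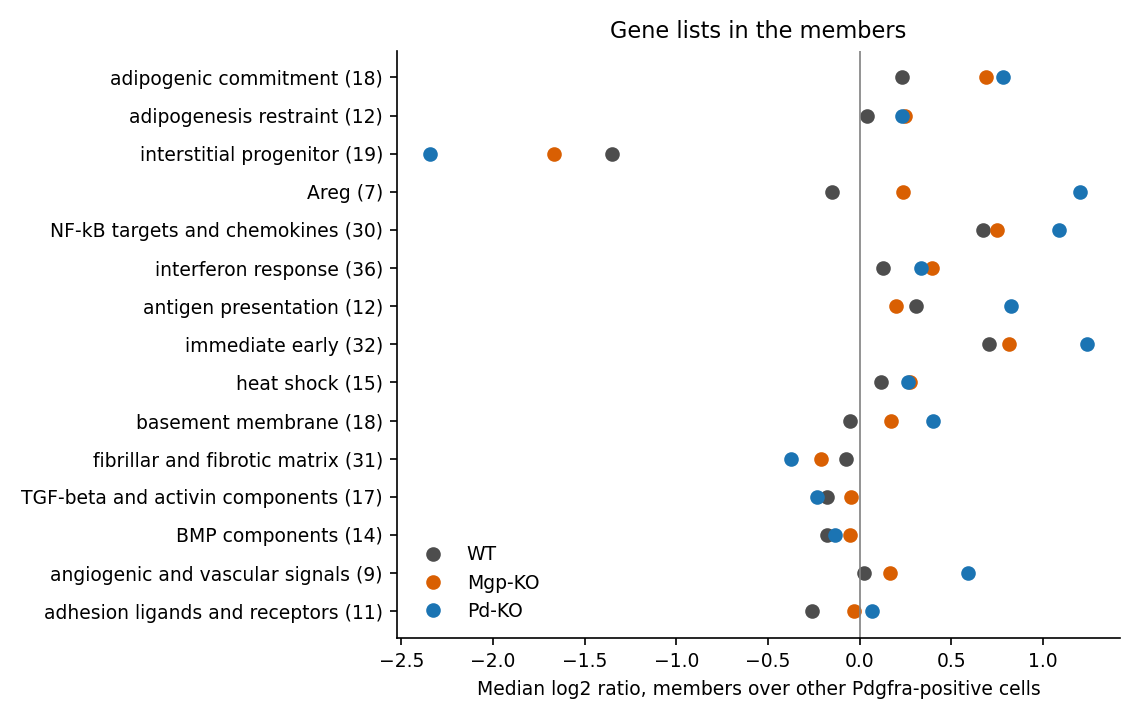
Median log2 ratio of members over other *Pdgfra*-positive cells (linear axis) for each gene list in the WT, *Mgp*-KO and *Pd*-KO libraries, with the number of tested genes in brackets. NF-κB targets (medians 0.67, 0.75 and 1.09) and immediate early genes (0.71, 0.81 and 1.24) lie to the right, and interstitial progenitor genes (-1.35, -1.67 and -2.34) to the left.

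A closer control is given by cells that met every threshold but had no *Icam1* UMI. Against them the NF-κB medians were 0.92 in WT, 0.93 in *Mgp*-KO and 0.88 in *Pd*-KO, and the immediate early medians 0.58, 0.62 and 0.96. The interferon medians were 0.52, 0.73 and 0.56, and the antigen presentation medians 0.68, 0.48 and 0.88. The interstitial medians were -0.30 in WT, -0.49 in *Mgp*-KO and -0.93 in *Pd*-KO. *Ccl2* stood at 151 CPM in the WT cells with no *Icam1* UMI, 365 in those with 1 UMI and 532 in members. In *Mgp*-KO its levels were 299.8, 761 and 1219 CPM, and in *Pd*-KO 84.7, 127 and 311 CPM. *Nfkbia* went from 318 to 603 and 754 CPM in WT, from 499.5 to 812 and 1072 CPM in *Mgp*-KO, and from 128 to 204 and 293 CPM in *Pd*-KO. Both genes were thus higher with each step of *Icam1* in every library. *Pparg* did not follow in WT, where it was at 64.2, 45.4 and 57.1 CPM, but was at 43.4, 49.9 and 70.3 CPM in *Mgp*-KO and 85.3, 101 and 131 CPM in *Pd*-KO. Cells with no *Icam1* UMI were shallower, with median depths of 8010, 5374 and 5421 UMIs, so the steps of *Icam1* are also steps of depth. Of the genes called at 2-fold against these cells, 18 were higher and 39 lower, and only 6 and 3 were also called against all other *Pdgfra*-positive cells.

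Within the members, *Icam1* itself varied. With 2, 3, 4 to 5 and at least 6 *Icam1* UMIs, *Ccl2* was at 346, 401, 670.1 and 698 CPM in WT and at 1093, 1066, 1384 and 1362 CPM in *Mgp*-KO. *Cxcl1* was at 771, 1009, 1149 and 1050.0 CPM in WT and at 1028, 1301, 1702 and 1026 CPM in *Mgp*-KO. Neither chemokine was thus higher at every step in both libraries. *Fabp4* was at 4019, 2925, 3426 and 4224 CPM in WT and at 1804, 1999, 2237 and 1975 CPM in *Mgp*-KO. *Col4a1* was at 2648, 2535, 2331 and 2477 CPM in WT, but in *Mgp*-KO at 1512, 1685, 1611 and 1913 CPM. In *Pd*-KO 8 members had 3 *Icam1* UMIs, 6 had 4 to 5 and 1 had 6, too few to read an order.

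Markers of other cell types were summed as well, of which the rule itself had set *Epcam* and *Pecam1* to 0. Endothelial markers summed to 40.5 CPM in WT, 9.24 in *Mgp*-KO and 26.9 in *Pd*-KO members, against 127, 35.5 and 114 CPM in other *Pdgfra*-positive cells, and epithelial markers to 44.7, 15.1 and 14.9 CPM with *Krt5* at 0, against 353, 146 and 76.1. Leukocyte markers were higher in members, at 19.1, 16.9 and 17.9 CPM with *Cd74* first and *Cd3e* at 0, against 7.79, 3.48 and 7.27 CPM, and in WT at 9.09 CPM without the *Ccl19*/*Ccl21a*-high cells. Schwann cell markers summed to 246, 201 and 239 CPM, mostly *Pmp22*, against 304, 259 and 270.3. Mural markers, with *Tagln* first, summed to 687, 83.5 and 206 CPM against 571, 197 and 217 CPM in the other cells. Without the *Ccl19*/*Ccl21a*-high cells the WT sum was 379 CPM, below that of the other cells. Erythroid markers summed to 67.5, 1.54 and 8.96 CPM against 168, 55.7 and 68.1 CPM, and the free RNA of the WT library held 31946 CPM of them. The doublet caller marked 5 WT, 3 *Mgp*-KO and no *Pd*-KO members.

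The deletion was visible in the members. *Mgp* was at 248 CPM in WT members, in 128 of 276 cells, and at 0 UMIs in the members of both knockout libraries. Against a floor of 3 UMIs per library (0.924 CPM in *Mgp*-KO and 8.96 in *Pd*-KO), WT members were at least 268-fold and 27.7-fold higher. Other *Pdgfra*-positive cells had 481 CPM in WT, 0.734 in *Mgp*-KO and 1.93 in *Pd*-KO.

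Libraries were then compared within the members, with ratios centered on their median, which took off 0.19 for *Mgp*-KO over WT, 0.40 for *Pd*-KO over WT and 0.17 for *Pd*-KO over *Mgp*-KO on the log2 scale. At 2-fold, 1071 of 6371 tested genes were higher (16.8%) and 240 lower (3.77%) in *Mgp*-KO than in WT, and 1269 of 6879 were higher (18.4%) and 693 lower (10.1%) in *Pd*-KO than in WT. Between the knockouts, 438 of 6984 were higher (6.27%) and 472 lower (6.76%) in *Pd*-KO. The 45 *Pd*-KO members held few UMIs, so part of these calls were within counting error: with a counting interval that leaves out 0 also asked for, the calls were 316 higher and 392 lower between the knockouts, 1130.0 higher and 642 lower in *Pd*-KO over WT, and the same numbers in *Mgp*-KO over WT. The asymmetry toward the knockouts followed the length of the genes on the genome. In the quartile of genes with the longest genomic span (from 73.9 kb) the median log2 ratio of *Mgp*-KO over WT was 1.03, and in the shortest quartile it was -0.46. For *Pd*-KO over WT these medians were 1.08 and -0.62, whereas between the knockouts they were 0.11 and -0.09. The headers name Cell Ranger 4 for WT and 7.1.0 for both knockouts, whereas the study's methods name 6.1.1 with default parameters for all. The defaults of 7.1.0 count intron reads and those of the earlier versions leave them out, but no source states what was done for each file; genotype and counting cannot be told apart. With a running median over span taken off, the calls were 454 higher and 270 lower for *Mgp*-KO over WT and 680 higher and 484 lower for *Pd*-KO over WT. The higher genes were then 62.7% of calls in place of 81.7%, and 58.4% in place of 64.7%. Without centering, their share of calls was 89.6%, 87.8% and 64.6%, against 48.1% for the last comparison as centered.

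**Figure D5:**
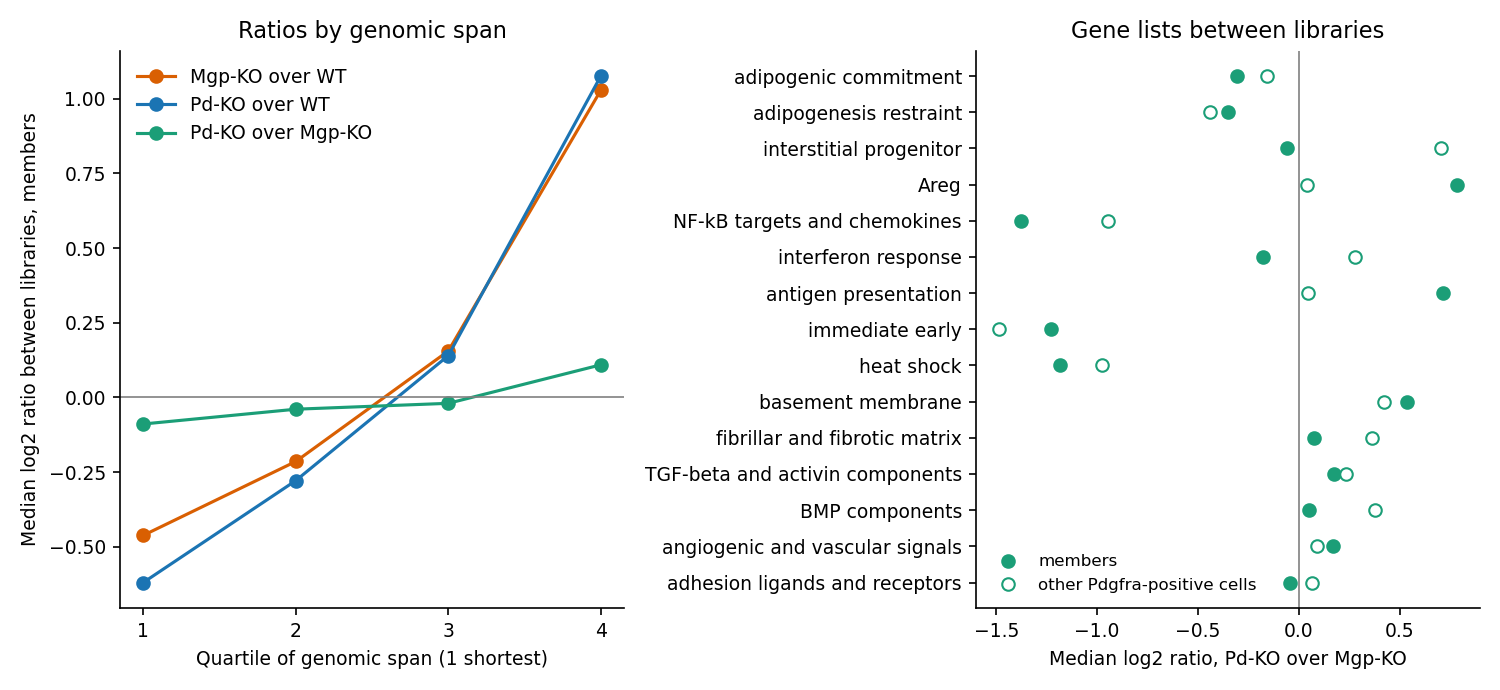
Left, median centered log2 ratio between libraries in members by quartile of genomic span (shortest to longest), for the 3 comparisons: both knockouts against WT go from -0.46 and -0.62 to 1.03 and 1.08, and *Pd*-KO over *Mgp*-KO from -0.09 to 0.11. Right, median log2 ratio of *Pd*-KO over *Mgp*-KO (x axis) for each gene list (rows) in members and in other *Pdgfra*-positive cells, with NF-κB targets at -1.38 and -0.95.

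The knockouts share a Cell Ranger version, so their comparison with each other is given first. NF-κB targets and chemokines were lower in *Pd*-KO than in *Mgp*-KO members: of 38 tested, 2 were called higher (5.26%, against 6.27% of all genes) and 22 lower (57.9%, against 6.76%), with a median log2 ratio of -1.38 around a median of 0 over all genes. Among female cells the median was -0.84 and among male cells -1.70 (sex was read from *Xist* and Y-linked UMIs). *Ccl2* had a centered log2 ratio of -2.13, *Cxcl1* of -1.91 and *Nfkb1*, a subunit of the factor itself (479 CPM in *Mgp*-KO and 140 in *Pd*-KO), of -1.92. *Ptx3*, a pattern recognition protein, was at 559 CPM in *Mgp*-KO and 47.8 in *Pd*-KO (log2 ratio -3.67, -4.52 to -3.01). *Has1*, a hyaluronan synthase outside the list, was at 300 and 20.9 CPM (-3.91). Immediate early genes moved with them, with 24 of 34 lower (70.6%, against the same 6.76%) and a median of -1.23, and so did heat shock genes, with 8 of 15 lower (53.3%) and a median of -1.18. The other *Pdgfra*-positive cells showed the same direction, with medians of -0.95 for NF-κB, -1.48 for immediate early and -0.98 for heat shock genes, so cells outside the members moved the same way.

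A few basement membrane and antigen presentation genes were called higher in *Pd*-KO than in *Mgp*-KO members, where 6.27% of all genes were. Of the basement membrane list these were 4 of 22 (18.2%, namely *Col4a3*, *Col4a4*, *Lamb2* and *Col15a1*) with none lower. The median of 0.54 was 0.48 among female and 0.21 among male cells, and 0.42 in the other *Pdgfra*-positive cells. Of antigen presentation genes 2 of 15 were called higher (13.3%; *H2-Q7* and *H2-M3*), and the median of 0.71 was 0.56 among female and 0.19 among male cells, where the other *Pdgfra*-positive cells had a median of 0.05. *H2-Q7*, a nonclassical class I gene with close relatives among which reads may be split, was at 81.5 CPM in WT, 25.9 in *Mgp*-KO and 158 in *Pd*-KO members. Adipogenic commitment genes had 3 of 22 higher (13.6%, against 6.27% of all genes) and 2 lower (9.09%, against 6.76%), with a median of -0.31. The higher genes were *Ebf2*, *Aoc3* and *Klf5*, the last from 3 *Pd*-KO cells, and the lower genes were *Cebpb* and *Cebpd*. *Ebf2*, a regulator of adipocyte precursors, was at 216 CPM in *Mgp*-KO and 511 in *Pd*-KO, and *Cebpb* at 531 and 170 CPM. Of 33 fibrillar matrix genes, *Bgn* (biglycan, 589 and 1386 CPM) and *Fmod* were called higher (6.06%, near the 6.27% of all genes). Of the same list 5 were lower (15.2%, against 6.76%), and the median was 0.07. Interstitial progenitor genes had a median of -0.06 in members and 0.70 in the other *Pdgfra*-positive cells. Whether members differ from those cells in these shifts was not tested.

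Against WT, NF-κB genes of *Mgp*-KO members were called in both directions. Of 39 tested, 9 were higher (23.1%, where 16.8% of all genes were) and 6 lower (15.4%, where 3.77% were), with a median of 0.47 (0.68 with span taken off), and the other *Pdgfra*-positive cells had a median of 0.41. The lower genes were *Cxcl9*, *Ccl19*, *Il33*, *Birc2*, *Saa3* and *Serpina3g*, of which *Ccl19* lost the call without the *Ccl19*/*Ccl21a*-high cells (-0.84). *Tnfaip6* had a log2 ratio of 2.34, *Nfkb1* of 2.70, *Il6* (17.7 and 65.6 CPM) of 1.69 and *Ccl2* of 1.00, while *Cxcl1* had 0.17. *Has1*, which is not on the list, had 2.27 (54.5 and 300 CPM). In *Pd*-KO over WT, 18 of 35 NF-κB genes were lower (51.4%, against 10.1% of all genes) and 2 higher (5.71%, against 18.4%). The median of -1.02 was -0.36 with span taken off, -0.37 among female cells and -0.27 without the *Fgf10* threshold. *Ccl2* and *Cxcl1* had log2 ratios of -1.17 and -1.78.

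Adipogenic commitment genes were called in both directions in each knockout against WT. In *Mgp*-KO, *Zfp423*, *Ebf1* and *Bmper* were higher (14.3% of 21 tested, below the 16.8% of all genes) and *Fabp4*, *Fabp5*, *Apoe* and *Aoc3* lower (19%, against 3.77%), with a median of 0.11. With span taken off that median was -0.45, so its direction depends on how gene length is treated. In *Pd*-KO, 5 were higher and 5 lower (23.8% each, against 18.4% and 10.1% of all genes), with a median of -0.43. *Fabp4* had log2 ratios of -1.09 and -2.05 in *Mgp*-KO and *Pd*-KO over WT, and *Apoe* of -1.79 and -2.34. *Ebf1*, a regulator with a long gene, was at 553 CPM in WT, 1561 in *Mgp*-KO and 1843 in *Pd*-KO members. Heat shock genes were lower in *Pd*-KO than in WT in 13 of 15 cases (86.7%, against 10.1% of all genes), with a median of -1.55. *Dpp4*, kept low by the limit on *Pi16*, had log2 ratios of 1.65 and 2.60. Angiogenic genes were higher in 9 of 15 cases and lower in 1 (6.67%) in both knockouts. Of all genes 16.8% and 18.4% were higher and 3.77% and 10.1% lower. The angiogenic medians of 1.20 in *Mgp*-KO and 1.04 in *Pd*-KO were 0.89 and 0.49 with span taken off, and the first was 0.30 among male cells. Other *Pdgfra*-positive cells had 10 of 16 and 9 of 17 higher, with medians of 1.06 and 1.10. Of all genes tested in those cells, 936 of 6449 and 1180 of 6627 were higher.

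Because MGP binds BMP ligands, components of the BMP and TGF-β pathways were read between the libraries as well. Of 18 BMP genes tested in *Pd*-KO over *Mgp*-KO members, 2 were called higher (11.1%, against 6.27% of all genes). Another 2 (*Id1* and *Id3*) were called lower (11.1%, against 6.76%), and the median log2 ratio was 0.05. *Id1*, a common target of BMP signaling, was at 50.6 CPM in WT, 55.8 in *Mgp*-KO and 29.9 in *Pd*-KO members, from 82, 90 and 6 cells, and *Id3* was at 320, 505 and 248 CPM. Against WT, 3 of 17 BMP genes were higher in *Mgp*-KO (17.6%, near the 16.8% of all genes) and 1 lower (5.88%, against 3.77%). In *Pd*-KO 7 of 19 were higher (36.8%, against 18.4%) and 2 lower (10.5%, near 10.1%). In the other *Pdgfra*-positive cells of *Pd*-KO 8 of 20 were higher and 1 lower, where 1180 of all 6627 tested genes were higher and 325 lower. The BMP medians against WT were 0.45 in *Mgp*-KO and 0.39 in *Pd*-KO, and 0.14 and 0.06 with span taken off. Of 21 TGF-β genes, 1 was called higher in *Pd*-KO than in *Mgp*-KO members (4.76%) and 2 lower (9.52%), near the 6.27% and 6.76% of all genes. The activin receptor gene *Acvr2a* was higher (224 against 91.8 CPM), *Tgfbr1* (29.9 against 60.1 CPM, from 7 *Pd*-KO cells) and *Tgif1* were lower, and the median was 0.17. Against WT, 4 of 18 TGF-β genes were higher in *Mgp*-KO (22.2%, near the 16.8% of all genes) and 4 of 21 in *Pd*-KO (19%, near 18.4%). *Tgif1* alone was lower in *Pd*-KO (4.76%, against 10.1%). Their medians were 0.30 and 0.23, or 0.06 and 0.26 with span taken off. *Tgfbr3*, a coreceptor gene, was at 108, 425 and 454 CPM, and its log2 ratios over WT of 1.78 and 1.67 were 0.52 and 0.31 with span taken off, below the 2-fold call.

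The genes with the largest ratios between libraries, ranked after the running median over span was taken off, came with reservations that their values show. *Ccl21a*, *Ccl19* and *Clu* were lower in *Mgp*-KO than in WT, with most of their WT UMIs in the 38 cells described above. With all members *Clu* was at 768 CPM in WT and 12.0 CPM in *Mgp*-KO. Without the *Ccl19*/*Ccl21a*-high cells of both libraries it was still lower in *Mgp*-KO (log2 ratio -2.94), with 42.0 CPM left in WT. *Ccl19* then fell short of 2-fold (-0.84), and *Ccl21a*, at 13.8 CPM in WT, was below the level needed for a test. In *Pd*-KO, 1 cell gave 95.4% of the *Ccl21a* and 72.8% of the *Clu* UMIs. *S100a8* and *S100a9*, which encode calgranulins of neutrophils, were at 85.4 and 111 CPM in *Mgp*-KO, and every *S100a8* UMI came from 1 cell. *Nup210l* and *Airn* were higher in both knockouts, at 1.97, 126 and 50.8 CPM and at 29.0, 376 and 573 CPM in WT, *Mgp*-KO and *Pd*-KO members, and the other *Pdgfra*-positive cells had ratios of like size for *Airn* (3.79 and 4.53). *Gm17268* was at 0 UMIs in WT and 182 CPM in *Mgp*-KO, at least 216-fold higher, and *Gm10260* at 112 CPM in WT and 0 UMIs in *Pd*-KO, at least 12.5-fold lower. *AY036118* was at 1793, 65.6 and 179 CPM. *Glycam1* was at 73.4 CPM in WT members and 0 UMIs in the others, while free RNA held 404, 62.0 and 462 CPM of it. *Acta2* and *Tagln*, genes of the contractile apparatus, were at 227 and 288 CPM in WT and 5.97 and 26.9 CPM in *Pd*-KO, and in WT at 153 and 116 CPM without the 38 cells. Their log2 ratios of *Pd*-KO over WT were -5.33 and -3.74, and -1.86 and -1.88 without the *Fgf10* threshold. In *Pd*-KO relative to *Mgp*-KO, *Il33* (111 against 5.85 CPM), *Notch3* (71.7 against 4.62 CPM), *Hhip* (65.7 against 6.47 CPM), *Csmd1* (329 against 33.0 CPM) and *Ecrg4* (80.6 against 10.2 CPM) were among the highest, from 7 to 13 cells each. The log2 ratio of *Csmd1* was 3.87 among female cells and 0.996 among male cells, just below the 2-fold call.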

How the data were processed

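Inguinal SVF cells were profiled in 3 libraries of 10x Genomics 3′ chemistry. The authors deposited counts, namely raw UMI counts of 32285 genes in every barcode, unfiltered and not normalized. The submitters' notes name Cell Ranger 6.1.1 and GRCm39, the study's methods name the same version with default parameters and mm10, and the file headers name Cell Ranger 4 (WT) and 7.1.0 (both knockouts). For 40 symbols listed under more than 1 identifier, the identifier with the most UMIs was kept. Each library is its own group by genotype.

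Thresholds were applied to raw counts in Python 3.11.15 (NumPy 2.4.6, SciPy 1.17.1, pandas 2.3.3). CPM were computed from UMIs summed over cells. Shares have Clopper-Pearson intervals, and log2 ratios have exact conditional binomial intervals with 0.5 UMIs added to the point value. Genes needed 20 CPM in the higher group. Called means 2-fold, and between libraries ratios were centered on their median, and as an alternative a median over the 200 neighbors in genomic span (GRCm38) was taken off. Doublets were scored with Scrublet in scanpy 1.11.5 at an expected rate of 8%, at a threshold of 0.33 in *Mgp*-KO where the automatic threshold marked 0.0159% of cells, and were kept. Free RNA was taken from barcodes of 10 to 100 UMIs. The steps were tested on simulated data.

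The members and gene lists were chosen with earlier results of these data known. Named genes are those of the rule and its markers, and the 15 highest and 10 lowest by the smallest log2 ratio over the libraries. For each pair of libraries, the 8 highest and 8 lowest of genes with at least 50 CPM in either library were added. These were ranked after the running median over genomic span was taken off, leaving out mitochondrial, ribosomal protein, *Xist*, *Tsix* and Y-linked genes. From each list, up to 4 of highest level and up to 4 called were added. Not every gene so named is reported here, and some printed genes of the lists fall outside this rule and were chosen after their values were seen.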

Additional observations from a re-analysis of the deposited data

Results flagged for a closer look

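*Fmo2*, a flavin-containing monooxygenase, stood in opposite directions in 2 libraries when members were compared with other *Pdgfra*-positive cells. Its level in members was 36.8 CPM in WT, 94 in *Mgp*-KO and 131 in *Pd*-KO, against 95.7, 92.9 and 57.9 CPM in the other cells, with log2 ratios of -1.37 in WT, 0.02 in *Mgp*-KO and 1.20 in *Pd*-KO. A UMI of it was found in 51, 124 and 8 members, and 1 cell gave 52.3% of the *Pd*-KO UMIs. The difference between libraries was not tested.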

How the results depend on the processing

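No paired analysis was possible because each genotype has 1 library. The share of members in *Pd*-KO was the lowest under every setting tried. Shares in WT, *Mgp*-KO and *Pd*-KO that moved beyond their intervals were 5.79%, 9.42% and 2.04% with at least 1 *Icam1* UMI, 2.44%, 3.30% and 0.235% with at least 3, and 13.1%, 10.8% and 2.65% without the *Fgf10* threshold. Thinning to 5000 UMIs gave 5.40% in WT and 6.05% in *Mgp*-KO, and thinning to 2000 UMIs gave 3.38% in *Mgp*-KO and 0.321% in *Pd*-KO. The *Mgp*-KO share was 6.34% among female and 4.03% among male cells, and the WT share was 3.11% without the *Ccl19*/*Ccl21a*-high cells. Genes higher and lower in members numbered 156 and 143 against cells with at least 3 *Pi16* UMIs, 2129 and 208 with no filter, and 96 and 121 at 1.5-fold, and 9 were higher without the *Ccl19*/*Ccl21a*-high cells. Between libraries, no filter gave 4553 higher and 2581 lower genes (*Mgp*-KO over WT), 4285 and 2659 (*Pd*-KO over WT) and 3606 and 2219 (*Pd*-KO over *Mgp*-KO), and 1.5-fold gave 1673 and 1001, 1996 and 1695, and 1169 and 1161. Without centering, 151 were lower in *Mgp*-KO, and 1963 were higher and 273 lower in *Pd*-KO than in WT. With span taken off, 454 and 680 were higher in the knockouts. Female cells gave 1138 lower in *Pd*-KO than in WT, and 910 higher and 925 lower than in *Mgp*-KO. Male cells gave 400 lower in *Mgp*-KO than in WT, 1093 lower in *Pd*-KO than in WT, and 921 higher and 970 lower than in *Mgp*-KO. Without the *Fgf10* threshold, 151 were lower in *Mgp*-KO and 311 in *Pd*-KO than in WT, and 156 were higher and 250 lower in *Pd*-KO than in *Mgp*-KO. Of called values, the sign reversed for *Clu* in *Pd*-KO over *Mgp*-KO. Its log2 ratio was -0.33 with members chosen after cells were thinned to 5000 UMIs, and -0.059 among male cells. The sign also reversed for *S100a9* in *Mgp*-KO over WT among male cells (-1.12). The same held for *Saa3* in *Pd*-KO over WT without the *Fgf10* threshold (1.24) and the mural median there (0.48). *S100a8* and *S100a9* both had 1.53 in *Pd*-KO over *Mgp*-KO among male cells. That value came from the 0.5 UMIs added where neither library had a UMI, and gives no direction. Of the other values of named genes 827 stayed on their side of 2-fold and 41 did not. Of list medians 902 moved by less than 0.25 and 181 by more, and 84 changed sign, 39 of them by more than 0.25. Among these were adipogenic commitment in *Mgp*-KO over WT (0.11, and -0.45 with span taken off and -0.30 among female cells), basement membrane in *Pd*-KO over WT (0.30, and -0.46 with span taken off), antigen presentation in *Pd*-KO over WT (0.22, and -0.21 among male cells) and the adipogenesis-regulating population in WT members over others (-0.15, and 0.33 against cells with no *Icam1* UMI). The settings without *Ccl19*/*Ccl21a*-high cells, without the *Fgf10* threshold, at 2000 UMIs, on WT and *Mgp*-KO alone, and with an interval added to the fold were chosen after the data had been seen. The causes were not tested. *Pd*-KO has 45 members and 334791 UMIs in them, which limits each of its values.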

Other observations

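In *Mgp*-KO, 73.7% of members (exact binomial interval 69.5 to 77.6) were female by *Xist* and Y-linked UMIs, 12.8% male and 13.5% not assigned, against 59.9%, 16.8% and 23.2% of the other *Pdgfra*-positive cells. In WT 37.7% (31.9 to 43.7) and in *Pd*-KO 35.6% (21.9 to 51.2) of members were female, and the shares of the other cells, 34.5% and 32.6%, lay within these intervals.

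*Vegfa*, the main growth factor of endothelial cells, was at 82.7 CPM in WT, 71.2 in *Mgp*-KO and 102 in *Pd*-KO members, against 43.8, 38.9 and 42.6 CPM in other *Pdgfra*-positive cells. *Kitl*, the ligand of the receptor KIT, was at 64.1, 284 and 170 CPM against 72.3, 159 and 71.4 CPM, and so not higher in WT. *Cxcl12*, a chemokine for CXCR4-bearing cells, was at 446, 555 and 651 CPM against 293, 357 and 242 CPM, and in WT members without the *Ccl19*/*Ccl21a*-high cells at 283 CPM. Of 9 tested angiogenic genes none was 2-fold apart in all 3 libraries, and their median log2 ratios were 0.02, 0.17 and 0.59.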
